A study of Mus musculus with 4 samples.

Results

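The cytotoxic lymphocyte genes described here were Gzma, Gzmb, Prf1, Nkg7, Ncr1, Xcl1, Ccl5, Eomes, Tbx21 and Ifng, 10 of the 32285 genes counted. They were chosen by gene symbol alone, and all 10 were found in each of the 4 single-cell RNA-seq libraries. The 4 groups were fracture callus and trabecular bone, each from control and from glucocorticoid (GC) treated mice, with 1 library per group and therefore no replicates. The labels give C57BL/6J male mice of 20 weeks, with no transgene or engineered allele named, and subcutaneous pellets releasing prednisolone at 6.25 mg/kg/d (GC) or placebo (Ctrl), with collection at week 2. For the fracture model the study's text instead describes prednisolone given by injection every day, so the route in the callus mice was unclear, and how many mice made up a library was not given in the sources used here. Because of the single library per group, no difference between Ctrl and GC was tested. The 95% intervals below cover counting error only, and the spread between mice is not in them.

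Natural killer (NK) cells and cytotoxic T cells kill target cells by releasing granules at the contact site. Perforin (Prf1) opens the target membrane, granzymes such as Gzma and Gzmb enter and cleave proteins, and Nkg7 is a granule membrane protein needed for full degranulation. Ncr1 encodes NKp46, an activating receptor used as a marker of mouse NK cells. Xcl1 and Ccl5 are chemokines that draw dendritic cells, T cells and monocytes, and Ifng encodes interferon gamma, which activates macrophages. The transcription factors Eomes and T-bet (Tbx21) direct the development of NK cells and effector T cells.

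The positions of the genes in GRCm38, the build named mm10 in the submitters' processing notes, were read from the GENCODE annotation. Gzma spans chr13:113093825-113100981 and Gzmb chr14:56258838-56262260, both on the minus strand. Prf1 spans chr10:61297833-61304680, Nkg7 chr7:43437073-43438249 and Ncr1 chr7:4337724-4345164, all on the plus strand. Xcl1 spans chr1:164931644-164935527 and Ccl5 chr11:83525778-83530518, both on the minus strand. Eomes (chr9:118478212-118486132) and Ifng (chr10:118441046-118445892) are on the plus strand, and Tbx21 (chr11:97098071-97115331) is on the minus strand.

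The RefSeq promoters (GRCm38.p6) of 9 of the 10 genes were read, and the 5 of most use beside the results are shown 5′ to 3′ on the gene's own strand, with matches to searched motifs in capitals. Gzma and Ncr1 had most of their transcripts in NK-like cells, Gzmb and Nkg7 were also found outside lymphocytes, and Xcl1 had the lowest GC to control ratio in T-like cells of trabecular bone. The windows are chr13:113100982-113101231 (minus strand) for Gzma, chr14:56262335-56262584 (minus) for Gzmb, chr7:4337474-4337723 (plus) for Ncr1, chr1:164935566-164935772 (minus) for Xcl1 and chr7:43436888-43437072 (plus) for Nkg7. All lie upstream of the gene, and bases that the annotation places in an exon were left out, 43 for Xcl1 and 65 for Nkg7.
Gzma: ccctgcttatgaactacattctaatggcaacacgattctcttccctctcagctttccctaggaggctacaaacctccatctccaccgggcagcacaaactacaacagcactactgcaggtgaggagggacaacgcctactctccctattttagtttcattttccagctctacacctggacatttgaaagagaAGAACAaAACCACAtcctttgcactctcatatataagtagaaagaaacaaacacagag
Gzmb: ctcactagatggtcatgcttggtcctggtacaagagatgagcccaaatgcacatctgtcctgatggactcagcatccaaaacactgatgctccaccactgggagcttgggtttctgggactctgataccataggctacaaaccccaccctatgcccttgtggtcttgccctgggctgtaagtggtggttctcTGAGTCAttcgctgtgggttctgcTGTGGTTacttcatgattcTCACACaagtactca
Ncr1: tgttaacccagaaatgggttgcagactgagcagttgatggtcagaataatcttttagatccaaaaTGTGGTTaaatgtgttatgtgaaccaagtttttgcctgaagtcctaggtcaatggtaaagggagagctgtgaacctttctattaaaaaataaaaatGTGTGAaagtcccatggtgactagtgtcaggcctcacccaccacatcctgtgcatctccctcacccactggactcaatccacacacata
Xcl1: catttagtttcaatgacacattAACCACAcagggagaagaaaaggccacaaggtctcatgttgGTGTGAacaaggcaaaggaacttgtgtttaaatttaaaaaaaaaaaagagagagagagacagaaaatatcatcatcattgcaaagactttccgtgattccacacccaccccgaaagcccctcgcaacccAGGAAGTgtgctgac
Nkg7: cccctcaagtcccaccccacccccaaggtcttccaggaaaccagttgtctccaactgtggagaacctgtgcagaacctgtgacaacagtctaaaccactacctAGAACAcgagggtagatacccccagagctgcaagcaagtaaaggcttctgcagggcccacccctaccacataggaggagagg

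Each motif was searched on both strands of the 250 bases before the start of transcription, in these 9 genes and in 32851 promoters. Promoters of 1 chromosome and those with under 250 bases of sequence were left out. Below, all promoters means these 32851, counted per promoter, whereas the 9 genes were counted per gene. The T-box hexamer GTGTGA, the core bound by Eomes and T-bet, was found in 4 of the 9 genes (Gzmb, Ncr1, Xcl1 and Nkg7) and in 12.3% of all promoters. The match of Nkg7 lay in its exon part, which is not shown. TGTGGTT, a RUNX site, was found in Gzma, Gzmb, Ncr1 and Xcl1, 4 of 9, against 4.40% of all promoters. The ETS site AGGAAGT was found in Prf1, Xcl1 and Tbx21 (7.69% of all promoters), and the AP-1 site TGAGTCA in Gzmb (4.46%). The hexamer TGTTCT, 1 arm of the glucocorticoid receptor element, was found in Gzma and Nkg7 (16.1%). The site of the GATA family searched for, with the letters GATAAG, was found in none of the 9 (6.55%). No capitals above mark overlapping motifs, and a match gives only the presence of these letters.

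After filtering, 6714 Ctrl callus, 6890 GC callus, 3832 Ctrl trabecular and 4604 GC trabecular cells remained, with median depths of 3286 to 6261 unique molecular identifiers (UMIs, 1 per captured transcript). Cells were clustered without the 10 genes, and clusters were named from marker lists that held none of them. NK-like cells numbered 132 in Ctrl callus (1.97%, 95% interval 1.65 to 2.33) and 158 in GC callus (2.29%, 1.95 to 2.67), and only 10 (0.261%) and 22 (0.478%) in trabecular bone. T-like cells numbered 293 (4.36%), 397 (5.76%), 46 (1.2%) and 167 (3.63%) in the same order. At least 15 of 16 NK markers were detected in the NK-like cells of every library, where a single UMI counted as detected. Of 16 T cell markers, 15 were detected in NK-like cells of Ctrl callus, 10 in GC callus, 9 in Ctrl trabecular and 8 in GC trabecular bone, with summed levels of 938, 688, 1992 and 818 UMIs per 1000000 UMIs of the class (CPM). Among them Cd3e, an invariant chain of the T cell receptor complex, gave 1 UMI in Ctrl callus and 0 in the other NK-like groups, whereas Cd3d, another chain of that complex, gave 3, 5, 12 and 0 UMIs. In T-like cells all 16 T markers were detected in each library, with summed levels of 4669, 3209, 5644 and 5435 CPM in the same order. Most NK markers were also detected in T-like cells. In Ctrl callus Klra8 was at 211 CPM in NK-like and 0 in T-like cells, and Il18rap at 123 and 137 CPM. In NK-like cells Klrb1c was at 45.0 and 27.4 CPM in Ctrl and GC callus, against 240 and 351 CPM in trabecular bone. Kit, a listed marker of mast cells or basophils, was at 343 and 317 against 18.4 and 27.5 CPM.

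RNA of other cells differed between the NK-like groups. The summed level of 10 erythroid markers in NK-like cells was 632 CPM in Ctrl callus (5 markers detected), 17872 CPM in GC callus (7 detected), 2010 CPM in Ctrl trabecular bone (5 detected) and 139760 CPM in GC trabecular bone (8 detected), with Car1 at 0 in all 4. Mature neutrophil markers in trabecular NK-like cells went the other way, from 28035 CPM in Ctrl (9 of 9 detected) to 2131 CPM in GC (8 of 9). The 10 chondrocyte markers, all detected in callus, were at 3322 CPM in Ctrl and 1347 CPM in GC callus NK-like cells. B cell markers in NK-like cells gave 0 to 5 UMIs per library. The GC callus matrix had been restricted to 7762 called barcodes before deposit, whereas the other 3 matrices held all barcodes, so its cells were called by a different procedure.

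Across cell classes, the 10 genes were highest in NK-like or T-like cells, with the exceptions of Gzmb and Nkg7. Of all Gzma UMIs in a library, 78.2% to 87.5% came from NK-like cells, and Ncr1 UMIs came from them in 12 of 14, 12 of 21, 11 of 11 and 15 of 15 cases in Ctrl callus, GC callus, Ctrl trabecular and GC trabecular bone. NK-like cells held 76.1% and 65.4% of the Eomes UMIs in Ctrl and GC callus but 39.2% and 25.0% in Ctrl and GC trabecular bone. Ccl5 UMIs came mostly from T-like cells, with 51.9% (Ctrl callus), 63.3% (GC callus), 73.2% (Ctrl trabecular) and 75.4% (GC trabecular). Gzmb UMIs of the control libraries came instead from mast cell or basophil-like cells, with 73.5% in callus and 82.4% in trabecular bone. In Ctrl callus 1 cell held 135 of these UMIs, and without the top cell the class gave 70 of the remaining 144 Gzmb UMIs (48.6%), against 79.3% in Ctrl trabecular bone. Most Nkg7 UMIs of trabecular bone came from granulocyte-monocyte progenitor-like cells, 69.1% in Ctrl and 61.4% in GC.

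**Figure D1:**
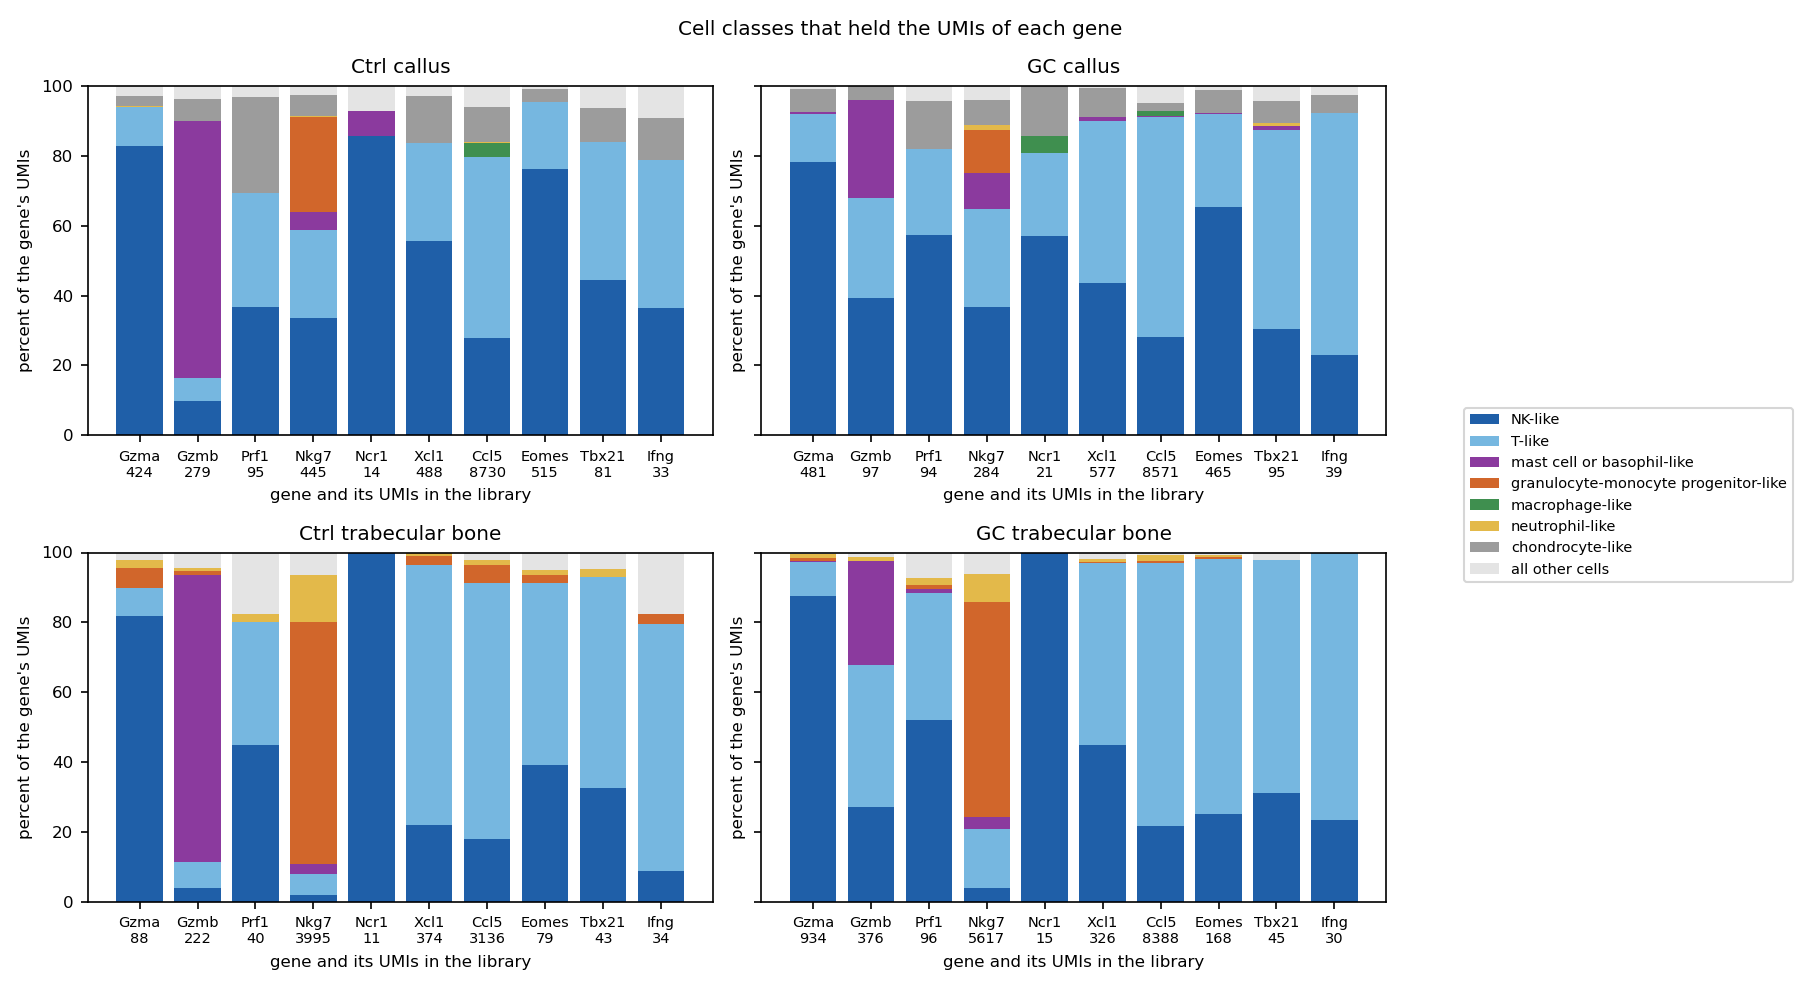
For each gene and library, stacked bars give the percentage of the gene's UMIs that came from each cell class. Gzma and Ncr1 bars are mostly NK-like, Ccl5 bars are mostly T-like, and the mast cell or basophil-like part of the control Gzmb bars is 73.5% and 82.4%, the first with 1 cell that held 135 UMIs.

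**Figure D2:**
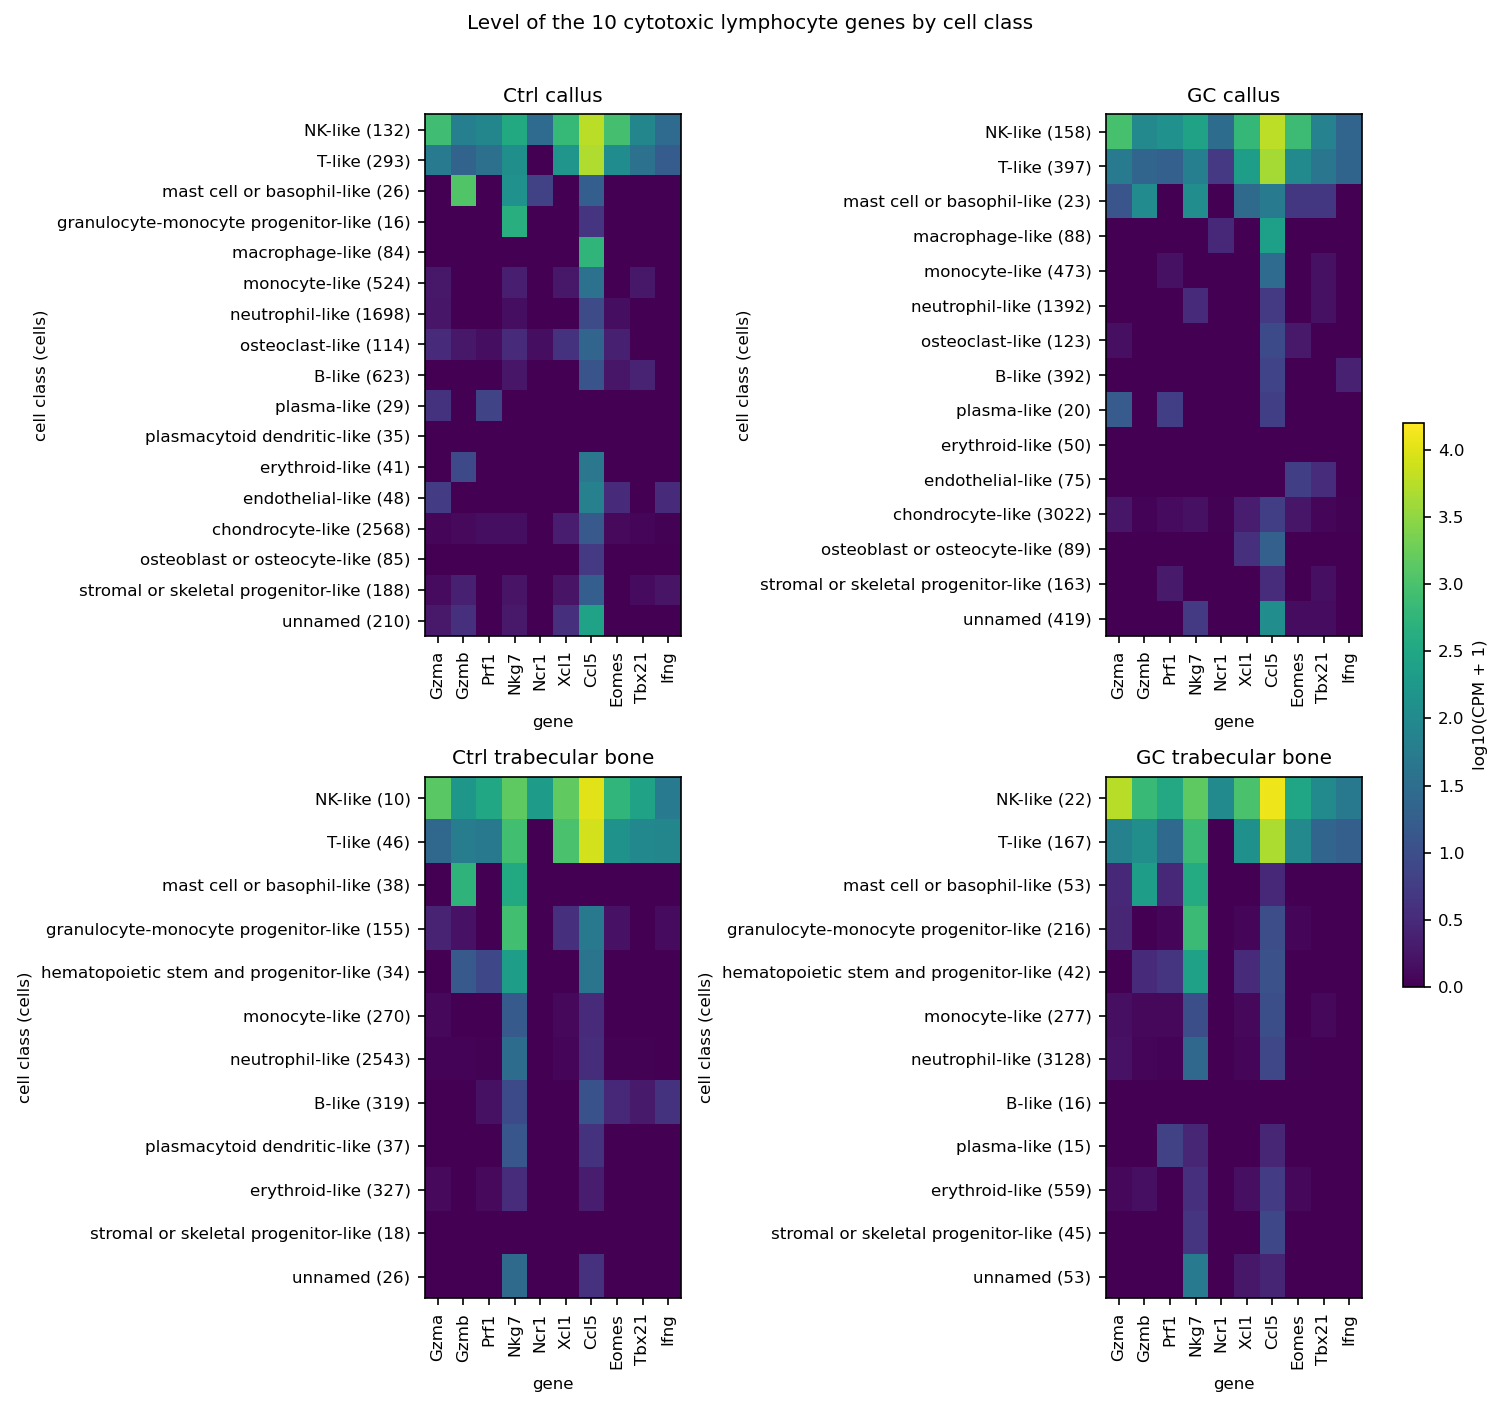
Heat maps, 1 per library, give log10(CPM + 1) of the 10 genes (columns) in each cell class (rows, with the number of cells). NK-like and T-like rows are high for most genes, Nkg7 is also high in granulocyte-monocyte progenitor-like rows, and Gzmb in mast cell or basophil-like rows.

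To set a level against free RNA, chondrocyte-like cells, which should lack these genes, were measured the same way. After thinning every cell to 1000 UMIs, 91.4% of 128 Ctrl and 92.9% of 155 GC callus NK-like cells held a Ccl5 UMI, against 1.01% and 1.03% of chondrocyte-like cells. Without thinning the shares were 96.2% and 95.6% in NK-like cells (median 3057 and 2333 UMIs), and 11.2% and 5.20% in chondrocyte-like cells, whose median depths were 23230 and 9795 UMIs. The other 9 genes were found in at most 0.463% of thinned chondrocyte-like cells of either callus library. In the empty droplets of the 3 libraries that kept them, Ccl5 was at 63.3 (Ctrl callus), 155 (Ctrl trabecular) and 283 (GC trabecular) CPM, and Nkg7 at 1.05, 68.8 and 80.5 CPM.

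In NK-like cells of the callus, Gzma and the chemokines Ccl5 and Xcl1 were at similar levels in both libraries. Gzma was at 831 CPM in Ctrl (351 UMIs) and 938 CPM in GC (376 UMIs), a ratio of 1.13 (0.973 to 1.31). Ccl5 was at 5745 and 5982 CPM (1.04, 0.984 to 1.10) and Xcl1 at 642 and 628 CPM (0.979, 0.822 to 1.17). None of these 3 ratios was separable from 1 by counting error. The sum of the 10 genes was 8788 CPM in Ctrl and 8920 CPM in GC, a ratio of 1.02 (0.969 to 1.06). Ccl5 made up 65.4% and 67.1% of that sum.

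In callus NK-like cells 3 genes had ratios whose interval left out 1. Prf1 was higher in GC, at 135 against 82.9 CPM (54 and 35 UMIs, ratio 1.62, 1.04 to 2.56). Nkg7 was lower in GC, at 259 against 353 CPM (104 and 149 UMIs, 0.735, 0.567 to 0.951), as was Eomes, at 758 against 928 CPM (304 and 392 UMIs, 0.817, 0.701 to 0.951). So the ratios of the genes for the pore-forming protein and for the granule membrane protein lay on opposite sides of 1. The remaining 4 genes were sparse. Gzmb was at 63.9 and 94.8 CPM (27 and 38 UMIs), Ncr1 at 28.4 and 29.9 CPM (12 UMIs each), Tbx21 at 85.3 and 72.3 CPM (36 and 29 UMIs) and Ifng at 28.4 and 22.4 CPM (12 and 9 UMIs) in Ctrl and GC. Differences in these 4 were not detectable at this depth.

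A fold of 2, computed on CPM + 5 for genes with at least 20 UMIs over both libraries, was passed by 0 of the 10 genes in callus NK-like cells, against 5.9% of the 5102 genes counted there. The median log2 ratio of the 10 was 0.014, against -0.085 over all those genes. Shares of thinned cells overlapped in their intervals for the granule genes. Gzma was found in 54.7% (45.7 to 63.5) of Ctrl and 49.0% (40.9 to 57.2) of GC cells, and Nkg7 in 26.6% (19.1 to 35.1) and 21.3% (15.1 to 28.6). Prf1 was found in 10.2% (5.52 to 16.7) and 14.2% (9.11 to 20.7) of them. Most thinned NK-like cells of the callus held 2 to 4 of the 10 genes.

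**Figure D3:**
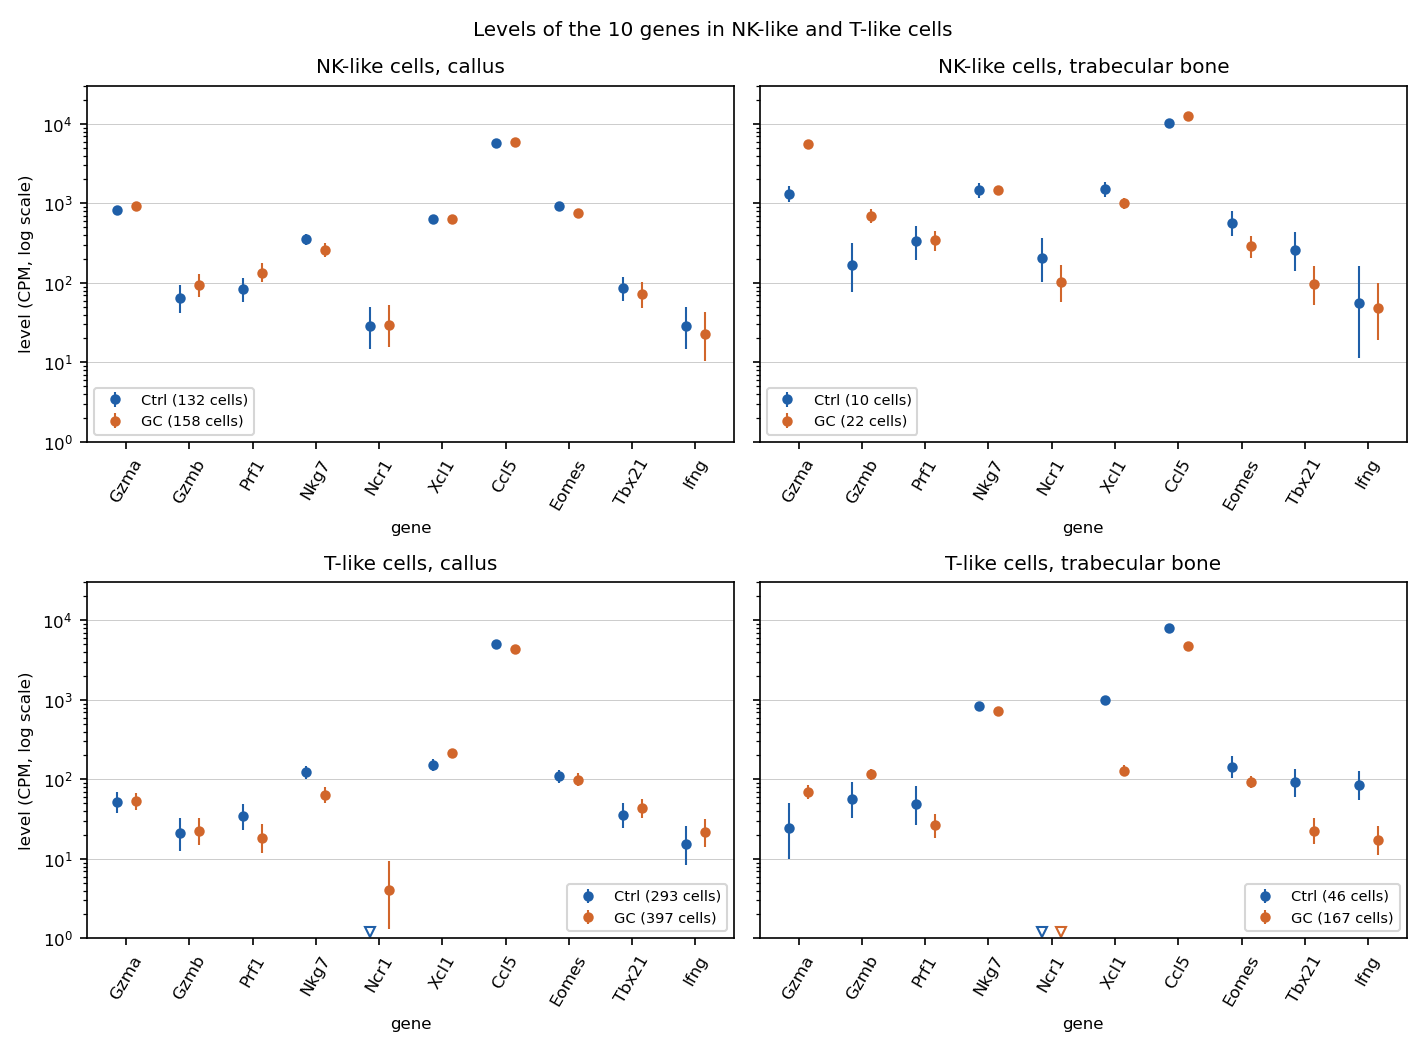
Points give CPM of each gene in NK-like and T-like cells of the 4 libraries on a log axis, with 95% Poisson intervals as bars and open triangles for genes at 0. Ctrl and GC points of most genes lie close together in callus NK-like cells, and in callus T-like cells Nkg7 is at 124 and 64.2 CPM. In trabecular bone Gzma of NK-like cells (1328 and 5617 CPM) and Xcl1 of T-like cells (985 and 129 CPM) are far apart.

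In T-like cells of the callus, Ccl5 and the granule genes Prf1 and Nkg7 were lower in the GC library and Xcl1 was higher. Ccl5 was at 4998 CPM in Ctrl and 4353 CPM in GC (4528 and 5422 UMIs, ratio 0.871, 0.837 to 0.906). The log2 ratio of Ccl5, -0.199, was near the median of -0.168 over all genes counted in these cells. Nkg7 was at 124 and 64.2 CPM (112 and 80 UMIs, 0.519, 0.385 to 0.698), and Prf1 at 34.2 and 18.5 CPM (31 and 23 UMIs, 0.540, 0.30 to 0.956). Xcl1 was at 151 and 214 CPM (137 and 267 UMIs, 1.42, 1.15 to 1.75). Xcl1 was also found in more of the thinned GC cells, 13.5% (10.2 to 17.4) of 378 against 7.83% (4.97 to 11.6) of 281 Ctrl cells. The sum of the 10 genes, of which Ccl5 made up 90.2% and 88.9%, was 5540 CPM in Ctrl and 4894 CPM in GC (0.883, 0.851 to 0.917). Its log2 ratio of -0.18 was -0.011 when centred on all genes. With only barcodes over the UMI cutoff it was 0.53, the opposite direction. In callus that cutoff applied to the Ctrl library only, and it left 11 Ctrl against 393 GC cells.

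The other genes of callus T-like cells had intervals that included 1. Eomes was at 109 and 99.5 CPM, Tbx21 at 35.3 and 43.3 CPM, Ifng at 15.5 and 21.7 CPM and Gzmb at 21 and 22.5 CPM in Ctrl and GC. Gzma was at 51.9 and 53.0 CPM, but a single GC cell held 45.5% of the GC UMIs. Ncr1 had 0 UMIs in Ctrl and 5 UMIs in 3 GC cells, under the minimum of 20. Of the 9 genes that reached it, 0 passed the fold of 2, against 3.98% of the 7517 genes counted, and their median log2 ratio was 0.028 against -0.168 over all. Chondrocyte markers moved in these cells from 3578 CPM in Ctrl to 1154 CPM in GC, with all 10 detected in both, and their part in the values was not tested.

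The T-like class was made partly of different sub-clusters in the 2 callus libraries. Sub-clusters T0 (165 cells), led by Fcer1g, Slc26a11 and Klrc2, and T5 (41 cells), led by Fcer1g, Vegfa and Klrc2, held GC cells only, and T3, led by Fcer1g and Fndc4, held 89 Ctrl and 2 GC cells. T6 held 40 Ctrl cells only and T4 held 6 Ctrl and 59 GC cells, both with Lef1 and Ccr7 among their leading genes. With 1 library per group, a sub-cluster of 1 library and a cell state of that condition cannot be told apart. Xcl1 was at 853 CPM in T5, 185 CPM in T0 and 314 CPM in the Ctrl cells of T3. Ccl5 was at 5194 CPM in T0 and 6214 CPM in T5, and was as low as 441 CPM in T6.

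Sub-clusters T1 and T2 held cells of both callus libraries in numbers. T2 (54 Ctrl and 61 GC cells), led by Cx3cr1, Ccl4 and Lmnb1, had Ccl5 at 14446 CPM in Ctrl and 8088 CPM in GC, Gzma at 350 and 99.5 CPM (36 and 14 UMIs), and Nkg7 at 458 and 185 CPM. Prf1 was at 127 and 56.9 CPM and Eomes at 341 and 206 CPM in the same cells, so each of these 5 values was lower in GC. In T1 (98 Ctrl and 62 GC cells), led by Tnfsf8, Ctla4 and Tnfrsf4, Ccl5 was at 3624 CPM in Ctrl (47 cells with a UMI) and 296 CPM in GC (8 cells). The sub-clusters were defined in the same cells, and their levels are given as a description.

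**Figure D4:**
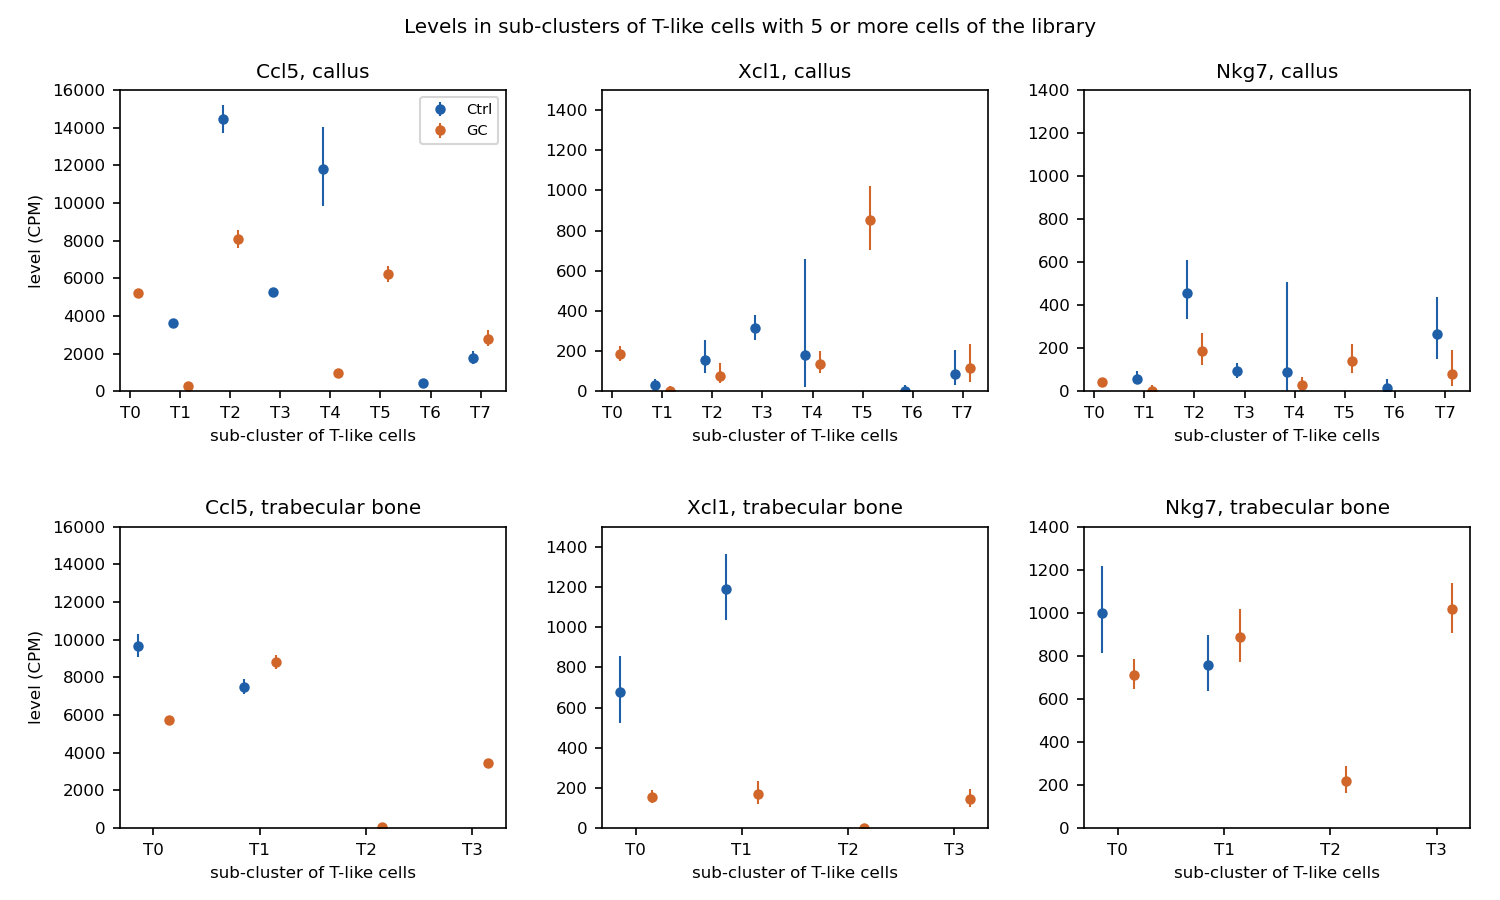
Points give CPM with 95% Poisson intervals of Ccl5, Xcl1 and Nkg7 in the T-like sub-clusters of callus and trabecular bone, with Ctrl and GC apart, for groups of at least 5 cells. Callus T2 has the highest callus Ccl5 levels (14446 in Ctrl, 8088 in GC), and trabecular T1 the largest gap in Xcl1 (1191 against 171).

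In NK-like cells of trabecular bone, which rest on 10 Ctrl and 22 GC cells, both granzymes were higher in GC and both transcription factors lower. Gzma was at 1328 CPM in Ctrl (72 UMIs, 7 of 10 cells) and 5617 CPM in GC (817 UMIs, 20 of 22 cells), a ratio of 4.23 (3.32 to 5.46). Gzmb was at 166 and 701 CPM (9 and 102 UMIs, 4.22, 2.14 to 9.5), with a UMI in 3 of 10 and 16 of 22 cells. Over the single cells Gzma ranged up to 4195 CPM in Ctrl (median 793) and up to 15249 CPM in GC (median 4877), so the cells of both groups overlapped. Tbx21 was at 258 and 96.2 CPM (14 UMIs each, 0.373, 0.165 to 0.844), and Eomes at 572 and 289 CPM (31 and 42 UMIs, 0.505, 0.310 to 0.831). However, 1 Ctrl cell held 12 of the 31 Ctrl UMIs of Eomes.

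The other granule genes of these cells did not follow the granzymes. Prf1 was at 332 CPM in Ctrl and 344 CPM in GC (1.04, 0.594 to 1.89), and Nkg7 at 1457 and 1464 CPM (1.01, 0.773 to 1.32). The chemokines parted, with Ccl5 at 10384 and 12485 CPM (1.2, 1.09 to 1.32) and Xcl1 at 1512 and 1004 CPM (0.664, 0.503 to 0.881). Ncr1 was at 203 and 103 CPM (11 and 15 UMIs, 0.508, 0.218 to 1.22), and Ifng had only 3 and 7 UMIs. Of the 9 genes with at least 20 UMIs, 3 passed the fold of 2 (Gzma, Gzmb and Tbx21), against 15.3% of the 1234 genes counted in these few cells. Their median log2 ratio was 0.007, against -0.189 over all genes.

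Erythroid or mature neutrophil markers made up over 5% of the UMIs in 1 of the 10 Ctrl and 4 of the 22 GC cells, at most 16.1% and 51.2% of a cell. Without these cells Gzma was at 988 CPM in Ctrl (45 UMIs) and 6493 CPM in GC (602 UMIs). Gzmb was then at 110 and 712 CPM (5 and 66 UMIs), and Tbx21 at 241 and 97.1 CPM. The Ctrl cell left out held 27 Gzma UMIs, as many as the top Ctrl cell for that gene. The part of erythroid and neutrophil RNA in the values was not tested. The T cell markers of the trabecular NK-like cells, at 1992 CPM in Ctrl and 818 CPM in GC, moved in the other direction from the granzymes, and their part in the values was not tested.

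In T-like cells of trabecular bone, the cytokine and chemokine genes and both transcription factors were lower in GC, and Gzma and Gzmb were higher. Xcl1 had the lowest ratio, at 985 CPM in Ctrl (279 UMIs in 27 of 46 cells) and 129 CPM in GC (170 UMIs in 50 of 167 cells), a ratio of 0.131 (0.107 to 0.159). A single Ctrl cell held 28.7% of the Ctrl UMIs, and without the top cell of each library the log2 ratio was -2.60. In thinned cells Xcl1 was found in 31.1% (18.2 to 46.6) of 45 Ctrl and 6.02% (2.93 to 10.8) of 166 GC cells. Ifng was at 84.8 and 17.4 CPM (24 and 23 UMIs, 0.206, 0.111 to 0.380), with 1 Ctrl cell holding 37.5% of its UMIs. Tbx21 was at 91.8 and 22.7 CPM (26 and 30 UMIs, 0.248, 0.142 to 0.436).

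Ccl5 of the same cells was at 8106 CPM in Ctrl and 4797 CPM in GC (2295 and 6328 UMIs, 0.592, 0.564 to 0.621), and Eomes at 145 and 93.2 CPM (0.644, 0.449 to 0.941). Gzma was at 24.7 and 69.7 CPM (7 and 92 UMIs, 2.82, 1.32 to 7.21), but 1 cell held 85.7% of the Ctrl and 1 cell 44.6% of the GC UMIs. Gzmb was at 56.5 and 116 CPM (16 and 153 UMIs, 2.05, 1.22 to 3.68), but 1 cell held 46 of the 153 GC UMIs. Nkg7, at 834 and 728 CPM (0.873, 0.756 to 1.01), and Prf1, at 49.4 and 26.5 CPM (0.537, 0.281 to 1.08), had intervals that included 1. Ncr1 had 0 UMIs in both libraries. The floor for a count of 0, set at 3 UMIs, was 10.6 CPM in Ctrl and 2.27 CPM in GC, so a level below it was not detectable at this depth. Of the other 9 genes, 4 passed the fold of 2 (Gzma, Xcl1, Tbx21 and Ifng), against 9.28% of the 6264 genes counted, and their median log2 ratio was -0.756 against -0.022 over all. Neutrophil markers in these cells were at 10758 CPM in Ctrl (8 of 9 detected) and 4488 CPM in GC (9 of 9). In the cells without over 5% of erythroid or neutrophil marker UMIs (44 Ctrl and 165 GC), Xcl1 was at 1021 and 132 CPM and Tbx21 at 98.3 and 23.4 CPM.

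The sub-clusters of these cells differed in number as well, since T1 held 33 of the 46 Ctrl cells and 45 of the 167 GC cells. T1, led by Cxcl2, Rora and Spry2, had Xcl1 at 1191 CPM in Ctrl and 171 CPM in GC. T0 (12 Ctrl and 69 GC cells), led by Dapl1 and Spry2, had Xcl1 at 676 and 155 CPM. Xcl1 was lower in GC in both T1 and T0, but no value here was computed without the Ctrl cell that held 80 of the 279 Ctrl UMIs. The sub-clusters were defined in the same cells, and the part of their numbers in the ratio was not tested. Ccl5 was lower in GC in T0 (9662 and 5722 CPM) but not in T1 (7508 and 8809 CPM). T2, with 1 Ctrl and 39 GC cells and with Lef1 and Ccr7 among its leading genes, had Ccl5 at 26.8 CPM in GC and no UMI of Xcl1 or Gzma. T3 held 14 GC cells only, with the cell cycle genes Top2a and Mki67 among its leading genes. Its median depth was 22738 UMIs, against 8164 in T0, so each of its cells weighed more in the summed GC levels. The part of T3 in the ratios was not tested.

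**Figure D5:**
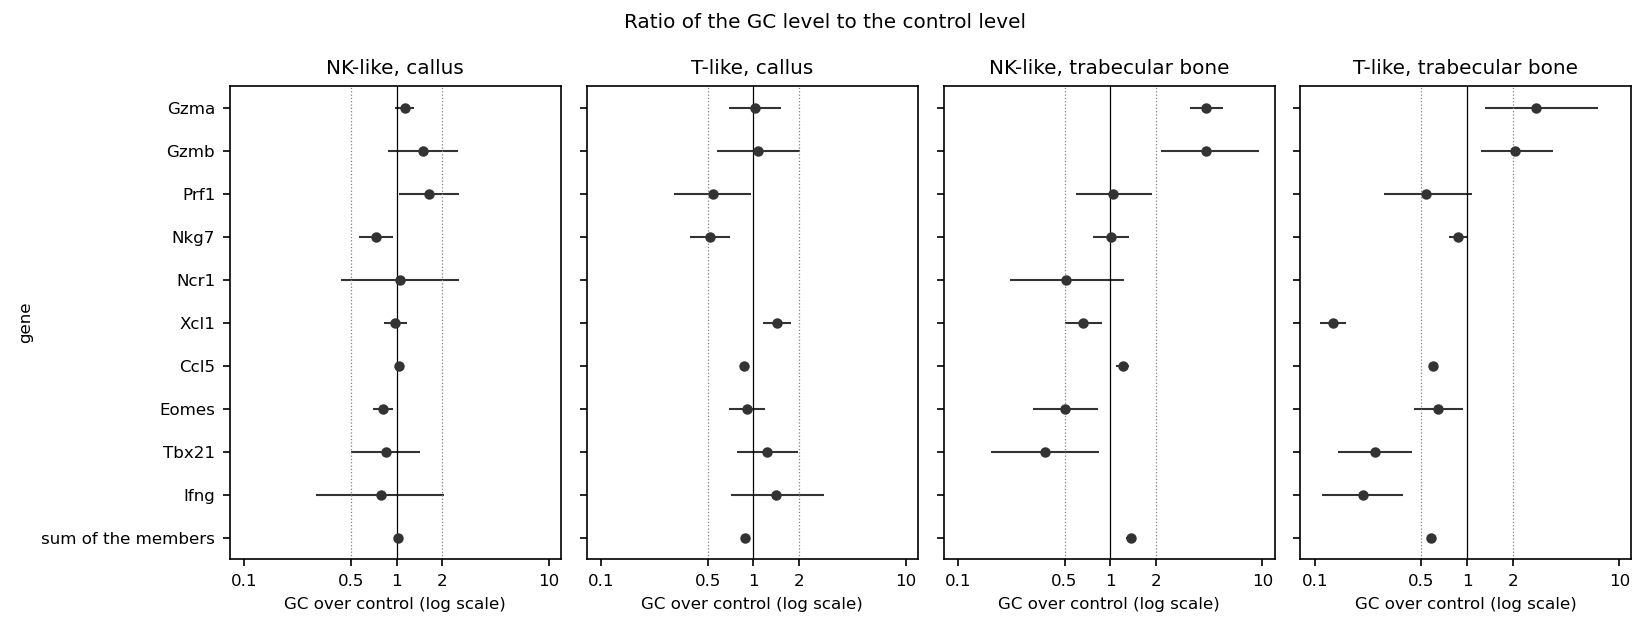
Points give the GC to control CPM ratio of each gene, on a log axis, with 95% counting intervals, in NK-like and T-like cells of both tissues, with dotted lines at 0.5 and 2 and the sum of the 10 genes in the bottom row. Genes under 20 UMIs are left out. In callus NK-like cells the ratios stay between 0.735 (Nkg7) and 1.62 (Prf1), and in trabecular bone they reach 4.23 (Gzma, NK-like) and 0.131 (Xcl1, T-like).

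Some of the genes had a source outside NK-like and T-like cells. Gzmb was found in mast cell or basophil-like cells, a class of 26 Ctrl callus, 23 GC callus, 38 Ctrl trabecular and 53 GC trabecular cells in which Mcpt4, Cma1 and Tpsb2, markers of mature mast cells, were at 0 in trabecular bone. In trabecular bone Gzmb was at 546 CPM in Ctrl (183 UMIs in 15 cells) and 222 CPM in GC (112 UMIs in 21 cells), a ratio of 0.406 (0.318 to 0.517). Its log2 ratio of -1.28 was -0.70, short of the fold of 2, with only barcodes over the UMI cutoff. Each of the 4 clusters of this class held cells of both trabecular libraries, and the class markers were at 44120 CPM in Ctrl and 38400 CPM in GC (7 of 10 detected in both). Among the 4, a cluster of 9 Ctrl and 11 GC cells was led by Ctla2a, Apoe and Sox4. Its markers scored nearly as high for hematopoietic stem and progenitor cells, at 0.967 of the score for this class. The share of thinned cells with Gzmb in the trabecular class was 27.0% in Ctrl and 13.5% in GC. Without thinning, 15 of 38 Ctrl and 21 of 53 GC cells held a Gzmb UMI, which are similar shares. In callus Gzmb was at 1149 and 104 CPM (205 and 27 UMIs, 0.0907), but 1 Ctrl cell held 65.9% of the Ctrl UMIs. The log2 ratio of -3.40 turned to 6.32 at most 5% mitochondrial UMIs and to 0.76 with no doublets removed, so no direction is given for the callus. Different clusters made up the class in the callus libraries. A cluster led by Cpa3, Mpo and Ctla2a held 11 Ctrl and 22 GC cells, and one led by Ccl4, Prss34 and Ccl3 held 15 Ctrl and 1 GC cell. The class markers were at 7182 CPM in Ctrl and 2422 CPM in GC callus, with all 10 detected in both, and their part in the Gzmb values was not tested. Nkg7 was at 135 and 112 CPM in the callus class and at 358 and 380 CPM in the trabecular one. Prf1 had 0 UMIs in this class in 3 libraries and 1 in GC trabecular bone, so Gzmb was found there without the pore-forming gene. Of the 2 genes with 20 UMIs, 1 passed the fold of 2 in each tissue, against 16.4% of genes in callus and 5.96% in trabecular bone.

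Granulocyte-monocyte progenitor-like cells, which give rise to neutrophils and monocytes, carried Nkg7 at 838 CPM in Ctrl (155 cells) and 715 CPM in GC trabecular bone (216 cells), and at 424 CPM in the 16 Ctrl callus cells. After thinning, 46.6% and 45.8% of the trabecular progenitor-like cells held an Nkg7 UMI, near the 48.9% and 44.6% of the T-like cells. In hematopoietic stem and progenitor-like cells Nkg7 was at 219 and 255 CPM. Gzmb in the granulocyte-monocyte progenitor-like cells of trabecular bone gave 2 UMIs in Ctrl and 0 in GC. Ccl5 in macrophage-like cells of the callus was at 569 CPM in Ctrl (22 of 84 cells) and 235 CPM in GC (13 of 88 cells), with 1 cell holding 23.1% and 27.6% of the UMIs. An unnamed callus cluster led by the MHC class II genes Cd74, H2-Aa, H2-Eb1 and H2-Ab1 had Ccl5 at 1188 CPM in 35 Ctrl and 1230 CPM in 51 GC cells. Other unnamed callus clusters led by Cd74 and H2-Aa held 10 Ctrl and 50 GC, 17 and 21, and 31 and 0 cells. Their levels are not given here.

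Summed over all cells of a library, a level combines how many cells carry a gene with how much each carries. It also depends on the UMIs of all the other cells. In callus the 10 genes together were at 139 CPM in Ctrl and 194 CPM in GC (1.40, 1.36 to 1.44), with Ccl5 at 1.42, Xcl1 at 1.71 and Gzma at 1.64. The 10 genes gave 11104 UMIs in Ctrl and 10724 in GC, a lower count in GC. All cells gave 80172218 and 55343131 UMIs, of which chondrocyte-like cells gave 62443089 and 39515593. The part of these totals in the ratios was not tested. Ccl5 made up 78.6% and 79.9% of the UMIs of the 10 genes. The size of the ratio for the 10 genes together moved with the weight given to each cell. Its log2 value of 0.47 was 0.073 as a mean over cells, 0.10 after thinning and 2.20 with only barcodes over the UMI cutoff. In callus that cutoff applied to the Ctrl library only. Gzmb was at 3.48 and 1.75 CPM (0.504, 0.396 to 0.637), but without the top cell of each library it was at 1.80 and 1.55 CPM (144 and 86 UMIs, 0.865, 0.654 to 1.14), an interval that included 1. Nkg7 was at 0.925 (0.794 to 1.08). None passed the fold of 2 on the CPM + 5 scale, where 0.483% of all genes did. A gene under 5 CPM in both libraries cannot pass on that scale, which held for Gzmb, Prf1, Ncr1, Tbx21 and Ifng. Without the added 5 CPM the ratio of Ncr1 was 2.17 (1.05 to 4.62), on 14 and 21 UMIs. The shares of NK-like and T-like cells, given above, were also higher in the GC callus library.

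In trabecular bone the sum was 236 CPM in Ctrl and 427 CPM in GC (1.81, 1.76 to 1.86). Nkg7, mostly from granulocyte-monocyte progenitor-like cells, made up 49.8% of it in Ctrl and 35.1% in GC, and Ccl5 39.1% and 52.4%. Nkg7 was at 117 and 150 CPM (1.28, 1.22 to 1.33), and Gzmb at 6.53 and 10.0 CPM (1.54, 1.30 to 1.82). Gzma had the highest ratio, with 2.59 CPM in Ctrl and 24.9 CPM in GC (9.63, 7.73 to 12.1), and Ccl5 was at 92.2 and 224 CPM (2.43, 2.33 to 2.53). These 2 passed the fold of 2 on the scale used for the callus, against 0.93% of all genes. The limit of that scale for low genes held here for Prf1, Ncr1, Eomes, Tbx21 and Ifng, which could not pass. The share of all genes also counted genes too low to pass. Without the added CPM the ratio of Prf1 was 2.18 (1.49 to 3.23), on 40 and 96 UMIs. That of Eomes was 1.93 (1.47 to 2.55), and the intervals of Ncr1, Tbx21 and Ifng included 1. Xcl1 was at 11 and 8.70 CPM (0.791, 0.680 to 0.92), although T-like cells were a larger share of the GC library. However, 1 T-like cell held 80 of the 374 Ctrl UMIs of Xcl1. Without the top cell of each library Xcl1 was at 8.65 and 8.09 CPM (294 and 303 UMIs). The interval of that ratio, 0.794 to 1.10, included 1.

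Between tissues, NK-like cells were compared per UMI first. The Ctrl values rest on 10 trabecular and 132 callus cells, with 11 and 12 UMIs of Ncr1 and 14 and 36 UMIs of Tbx21. In Ctrl NK-like cells the ratio of trabecular bone to callus was 7.14 (2.85 to 17.7) for Ncr1, 4.13 (3.10 to 5.46) for Nkg7, 4.01 (2.14 to 7.27) for Prf1 and 3.03 (1.51 to 5.75) for Tbx21. It was between 1.60 and 2.60 for Gzma, Ccl5, Xcl1 and Gzmb. Eomes went the other way, at 0.616 (0.413 to 0.889) in Ctrl and 0.381 (0.269 to 0.527) in GC NK-like cells. In GC NK-like cells the ratios of Gzmb (7.40, 5.05 to 11) and Gzma (5.99, 5.30 to 6.79) were the highest of the 10. In T-like cells Nkg7 had the highest ratio in both conditions, 6.74 (5.36 to 8.52) in Ctrl and 11.3 (9.01 to 14.4) in GC. Xcl1 of T-like cells was higher in trabecular bone among control libraries (6.52, 5.29 to 8.05) and lower among GC libraries (0.601, 0.493 to 0.731), as was Tbx21 among GC libraries (0.525, 0.324 to 0.835). Among GC T-like cells Gzmb (5.16) and Ccl5 (1.10) were also higher in trabecular bone, and the other genes had intervals that included 1. Callus and trabecular bone came from different models, so the tissue and the model cannot be told apart.

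Other genes of the killing pathway were taken from lists chosen by name. In callus NK-like cells 2 of the 59 listed genes with enough UMIs passed the fold of 2 (3.39%, against 5.9% of all genes). Of 9 genes with enough UMIs among 20 other granule and killing genes, 0 passed (median log2 ratio -0.089), and of 16 among 20 NK receptors and adaptors 0 passed (median 0.077). Of 11 other transcription factors Zeb2, which works with T-bet in NK cell maturation, was lower in GC, at 114 and 44.9 CPM (48 and 18 UMIs, 0.395, 0.216 to 0.691). Of 10 genes of the glucocorticoid response, Il7r, the interleukin 7 receptor, was higher in GC, at 9.47 and 67.3 CPM (4 and 27 UMIs, 7.11, 2.48 to 28.0). The median of those 10 was 0.097. Of 5 driving cytokines and receptors, 7 receptors and targets of the products, and 1 other chemokine with enough UMIs, 0 passed. Listed genes at 0 in both libraries were Gzmc, Gzmd, Gzmf and Gzmn, the cytokine or receptor genes Il2, Il12a, Il12b, Il15, Il21, Il12rb1, Il27, Csf2, Il10 and Il17a, and, of the receptors and targets, Ifngr2, Cxcl9, Iigp1, Ciita, Xcr1 and Ackr2. Xcr1, the receptor of Xcl1, is a gene of dendritic cells.

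In callus T-like cells, 7 of the 65 listed genes with enough UMIs passed (10.8%, against 3.98% of all genes). There 2 of 14 granule and killing genes passed the fold of 2, both lower in GC. These were Gzmk, a granzyme of memory T cells, at 38.6 and 12 CPM (0.312, 0.158 to 0.586), and Unc13d, which primes granules for fusion, at 21 and 7.22 CPM (0.344, 0.137 to 0.799). Of 11 NK receptors 2 were higher, Klre1 at 23.2 and 54.6 CPM (2.35, 1.43 to 4.05) and Klra7 at 9.93 and 34.5 CPM (3.47, 1.67 to 8.11). Klra7 belongs to a family of near-identical genes, and reads could be split among them. Ifngr2, a chain of the interferon gamma receptor, was lower (0.139, 0.0346 to 0.411), as was Areg, which encodes amphiregulin (0.201, 0.0793 to 0.45). Ifngr2 was among the leading genes of sub-cluster T6, which held 40 Ctrl cells only. Fkbp5, a direct target of the glucocorticoid receptor, was higher, at 9.93 and 32.1 CPM (3.23, 1.54 to 7.58), 1 of 10 glucocorticoid response genes. None of 12 transcription factors and none of 5 driving cytokines and receptors passed. Gzmd, Gzme, Gzmg, Zfp683, Il12a, Il12b, Il18, Il21, Il27, Cxcl9, Ackr2, Csf2 and Il17a were at 0.

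In trabecular bone the same lists gave 4 of 35 genes past the fold in NK-like cells (11.4%, against 15.3% of all genes), all higher in GC, Il2rg, Ltb, Tsc22d3 and Fkbp5, each with 1 to 7 Ctrl UMIs. In T-like cells 14 of 69 passed (20.3%, against 9.28% of all genes). In this class 3 of 14 granule and killing genes were higher in GC, and Serpinb9 and Serpinb6b, inhibitors that guard the cell against its own granule proteases, were at 31.8 and 101 CPM (3.17, 1.62 to 7.09) and at 42.4 and 119 CPM (2.81, 1.56 to 5.55). Rab27a, which docks granules, was at 14.1 and 68.2 CPM (4.83, 1.82 to 18.1). Tnfsf10 was lower, with an interval that included 1. Areg was lower (0.0683, 0.0246 to 0.165), and Gbp2 was higher, with an interval that included 1. Of 13 NK receptors and adaptors Klra7, Klrc1 and Tyrobp were lower, at ratios of 0.397, 0.470 and 0.374. Of 11 transcription factors Id2 (0.435, 0.348 to 0.545) and Gata3 (0.268, 0.173 to 0.417) were lower. Fkbp5 (3.33, 1.47 to 9.30) and Il7r (2.07, 1.61 to 2.69) were higher. The genes of trabecular bone in this paragraph were chosen after their values were seen.

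Across 51 combinations of cell class and library, the genes whose level followed the mean of the 10 most closely, by Pearson's r on log2(CPM + 5) among 15806 genes, were Klre1 (0.967), Baiap3 (0.948), Samd3 (0.946), Sh2d1a (0.945), Fasl (0.942), Klra7 (0.938), Trbc1 (0.937), Ctsw (0.936), Klrc2 (0.93) and Klrc1 (0.93). The points share libraries and depth, and r is given as a description. Klre1, Klra7, Klrc1 and Klrc2 encode NK receptors, and Fasl encodes the ligand of the death receptor Fas. Klre1, Klra7, Klrc2 and Trbc1 were among the markers that named the NK-like and T-like classes, so their likeness was partly built in. Baiap3 and Ctsw had only 28.9% and 38.1% of their UMIs in NK-like and T-like cells. Each of the 10 genes was also set against the mean of the other 9. Xcl1 (0.955), Tbx21 (0.95), Eomes (0.937) and Prf1 (0.930) followed it most closely, and Ncr1 (0.753), Gzmb (0.649) and Nkg7 (0.632) least.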

How the data were processed

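Single-cell suspensions of fracture callus and trabecular bone, with marrow flushed out and fragments digested with enzymes, were sequenced on the 10x Genomics platform. The deposited values are raw UMI counts per gene and barcode, made by the authors with Cell Ranger (4 in 3 matrix headers, 4.0.0 in the header of GC callus, 5.0.1 in the submitters' processing notes, which also name Seurat 3.2.0 and mm10). Library totals were 95852254 (Ctrl callus), 64388215 (GC callus), 41239842 (Ctrl trabecular) and 45876714 UMIs (GC trabecular).

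In the 3 libraries with all barcodes, cells were called by a UMI cutoff plus a test against empty droplets (adjusted p at most 0.01, at least 500 UMIs). The GC callus library came with 7762 called barcodes. Cells with under 200 genes or over 10% mitochondrial UMIs were removed, then predicted doublets (405, 428, 125 and 183 cells in the order above). Pairs of libraries shared 6 to 11 barcodes. Each tissue was clustered (2000 variable genes without the 10 members, 30 components, Leiden resolution 1), and clusters were named from fixed markers by a rule set after the clusters were seen. Members and lists were chosen with earlier results of these data known.

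UMIs were summed per class and library as CPM with exact Poisson intervals. Ratios have exact conditional and shares Clopper-Pearson intervals, all at 95% and for counting error only. With 1 library per group nothing was tested between conditions. Named genes were the 10 members, listed genes past a fold of 2 (at most 3 each way per list) or at 0 in callus NK-like or T-like cells, and the 10 genes most like the members. Shares of cells used 1000 UMIs drawn per cell, with shallower cells left out. The scripts (Python 3.11.15, scipy 1.17.1, scikit-learn 1.9.0, leidenalg 0.10.2) were tested on simulated data. The alternatives tried were other cell calling, filters, doublet treatment, clustering, thinning, weighting of cells, pseudocounts, scaling, minimum counts and fold.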

Additional observations from a re-analysis of the deposited data

Results flagged for a closer look

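Xcl1 in T-like cells had GC to control ratios on opposite sides of 1 in the 2 tissues, 1.42 in callus and 0.131 in trabecular bone. Over all cells the ratio of Xcl1 was 1.71 in callus and 0.791 in trabecular bone. With the top cell of each library left out, the trabecular interval of Xcl1 was 0.794 to 1.10, which included 1. The callus ratio of Xcl1 was then 1.79 (1.58 to 2.04), on 452 UMIs in Ctrl and 560 in GC. All callus cells gave 80172218 UMIs in Ctrl and 55343131 in GC, and the part of these totals was not tested. Over all cells Gzmb had ratios of 0.504 in callus and 1.54 in trabecular bone. Each group was 1 library, so these differences between tissues were not tested, and the tissues came from different models. In the callus T-like class, sub-clusters T0 and T5 held GC cells only and T6 Ctrl cells only, while T1 and T2 held both. In Ctrl callus 1 mast cell or basophil-like cell held 65.9% of the Gzmb UMIs of that class. Without the top cell of each library the callus ratio of Gzmb over all cells was 0.865 (0.654 to 1.14).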

How the results depend on the processing

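The main values were sums of 8788 (Ctrl) and 8920 CPM (GC) in callus NK-like cells, log2 ratios of 0.02 there, -0.18 in callus T-like cells, 0.47 over all callus cells and 0.84 over all trabecular cells, and 0 of 10 genes past a fold of 2. The largest changes came with only barcodes over the UMI cutoff, which left 5 NK-like and 11 T-like Ctrl callus cells (0.171% and 0.377%) and no trabecular NK-like class. The GC callus library had no such cutoff and kept 163 NK-like and 393 T-like cells. In callus only the Ctrl cells were thus restricted. The Ctrl sum was then 3386 CPM, the log2 ratios 1.36, 0.53 (reversed), 2.20 and 0.76, and 3 genes passed the fold. Thinning to 1000 UMIs gave sums of 10523 and 9697 CPM, log2 ratios of -0.12, -0.30, 0.10 and 0.97, and 1 gene past the fold. The mean over cells gave 10334 and 9497 CPM and -0.12, -0.33, 0.073 and 0.92. Centring on all genes gave 0.11 in NK-like and -0.011 in T-like cells. With no doublets removed the Ctrl sum was 8472 CPM and the callus log2 ratio 0.35, at most 5% mitochondrial UMIs gave 0.81 over trabecular cells, and a pseudocount of 20 gave 0.43 and 0.80. A fold of 1.5 was passed by 1 gene. Without thinning, the median share of Ctrl callus NK-like cells with a UMI was 39.8% in place of 19.5%.

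Gzmb in callus mast cell or basophil-like cells reversed to log2 ratios of 6.32 at most 5% mitochondrial UMIs and 0.76 with no doublets removed, and that class was not found with at least 500 genes. In trabecular bone it was -1.28, and -1.90 to -0.70 over the alternatives, with -0.70 for only barcodes over the UMI cutoff. The causes were not tested. The alternatives for single genes and the values without the top cell of each library were chosen after seeing the data. The former gave log2 ratios of -3.17 to -1.96 for Xcl1, -1.86 to -1.56 for Tbx21 and -2.04 to -1.60 for Ifng in trabecular T-like cells. They gave 2.05 to 2.71 for Gzma, 2.02 to 2.74 for Gzmb and -1.52 to -1.01 for Tbx21 in the 10 and 22 trabecular NK-like cells, whose number limits the precision.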
